A study of Mus musculus with 6 samples.

Results

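The genes described here are 7 members of the mouse MS4A family, Ms4a1 (which encodes CD20), Ms4a4b, Ms4a4c, Ms4a4d, Ms4a6b, Ms4a6c and Ms4a6d, out of 39017 genes in a table of exon read counts. They were picked by symbol, and they were chosen from the values of the Prmt1-null against Control contrast in these same libraries, so their differences between genotypes are given as a description, without a test. The libraries came from induced germinal center B cells (iGBs), which are splenic B cells of C57BL6/J mice grown for 3.5 days with IL-4 on 40LB cells, a feeder line that supplies CD40L and BAFF, and then freed of feeder cells on magnetic beads. The Control group held 3 libraries from Cγ1-cre mice, and the Prmt1-null group held 3 libraries from Prmt1 F/F Cγ1-cre mice. Both groups therefore carried the Cre allele, which is expressed from the IgG1 constant region locus once a B cell is activated, so that a floxed gene is deleted after activation rather than in development. Each group had 2 females and 1 male. The labels number the libraries as replicates, and whether each mouse was cultured on a separate day is not given, so the spread is that between these samples.

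MS4A proteins are small proteins that cross the membrane several times, and they sit in the surface membrane beside receptors and tetraspanins. CD20 is the defining surface protein of mature B cells, it takes part in calcium entry after antigen receptor signalling, and therapeutic antibodies such as rituximab bind it. Other members mark other blood cells: Ms4a2 encodes the β chain of the high-affinity IgE receptor of mast cells and basophils, Ms4a3 is a gene of granulocyte and monocyte progenitors, Ms4a7 and Ms4a6d are macrophage genes, and Ms4a4b is best known from T cells.

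All 7 members lie on chromosome 19 of the mm10 build. Ms4a1 (ENSMUSG00000024673) occupies 11249675 to 11266241 on the minus strand. Ms4a4c runs from 11404770 to 11427246, Ms4a4b from 11443553 to 11467055 and Ms4a6c from 11469366 to 11482192, all on the plus strand. Ms4a6b runs from 11516512 to 11531256 and Ms4a4d from 11536801 to 11558467 on the plus strand, and Ms4a6d from 11586604 to 11604849 on the minus strand. The longest annotated coding part was 873 bases for Ms4a1, 678 bases for both Ms4a4b and Ms4a4c, and 741 bases for Ms4a6d.

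By coding sequence the members fell into a separate Ms4a1, a group of Ms4a4 genes and a group of Ms4a6 genes. Ms4a4b and Ms4a4c were identical at 91.7% of 678 aligned bases. Ms4a4c and Ms4a4d were identical at 86.1%, and Ms4a6b and Ms4a6c at 85.8%. Ms4a6c and Ms4a6d were the least alike within the Ms4a6 group, at 77.4%. Ms4a1 shared between 58.3% and 62.8% of aligned bases with the other members, a range close to that between the 2 groups (56.2% to 59.2%).

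**Figure D1:**
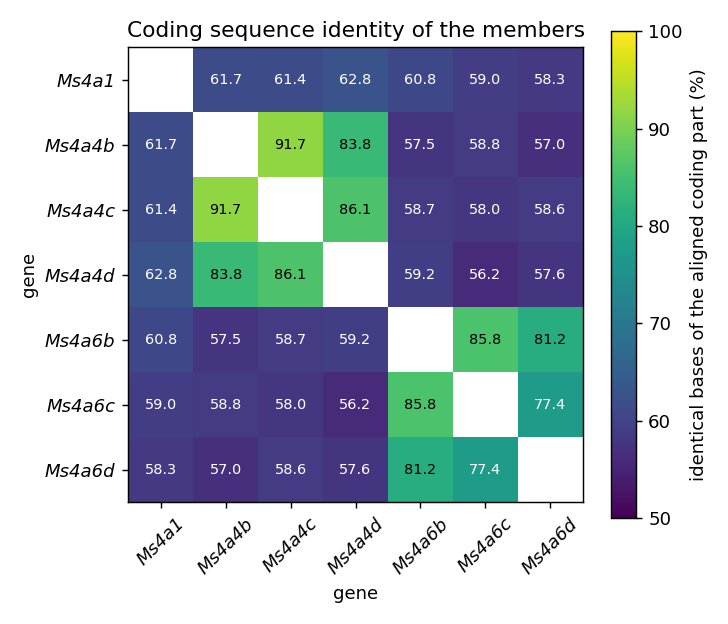
Percentage of aligned coding bases that were identical for each pair of members, both axes listing the genes and the colour giving the percentage. The Ms4a4 block (83.8% to 91.7%) and the Ms4a6 block (77.4% to 85.8%) stand out from the pairs that involve Ms4a1, which stay between 58.3% and 62.8%.

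The stretch of coding sequence in which Ms4a4b and Ms4a4c are hardest to tell apart is shown because a read that covers none of its differing positions can be assigned to either gene. It covers coding bases 261 to 507 of both genes, from the GENCODE transcripts, 5′ to 3′, with capitals at the 13 positions where the genes differ (they differ at 56 positions over the whole coding part). The longest run without a difference is 127 bases.
Ms4a4b: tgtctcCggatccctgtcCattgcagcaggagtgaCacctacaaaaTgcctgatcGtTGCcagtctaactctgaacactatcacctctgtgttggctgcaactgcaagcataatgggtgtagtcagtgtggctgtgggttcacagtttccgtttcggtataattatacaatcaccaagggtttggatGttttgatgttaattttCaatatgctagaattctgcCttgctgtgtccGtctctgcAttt
Ms4a4c: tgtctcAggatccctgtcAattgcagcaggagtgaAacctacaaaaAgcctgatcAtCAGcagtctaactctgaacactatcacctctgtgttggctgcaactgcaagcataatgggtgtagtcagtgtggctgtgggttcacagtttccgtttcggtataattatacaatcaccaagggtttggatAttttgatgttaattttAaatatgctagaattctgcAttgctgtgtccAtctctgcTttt

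Reads that mapped to as many as 2 places were kept in the counting, so the shared sequence bears on the counts. In windows of 50 bases, 8.19% of the windows of Ms4a4c transcripts occurred in another family member, against 2.24% for Ms4a4b, 5.85% for Ms4a6c and 3.44% for Ms4a6b. Ms4a4b shared 135 windows with Ms4a4c and 63 with Ms4a2. Counting all other genes, the share of Ms4a6c was 11.1%, with 66 windows also in Prdm11 and 40 in Upb1. In windows of 100 bases the shares within the family were 1.66% for Ms4a4c and 0.473% for Ms4a4b, and no window of the 3 Ms4a6 genes was found in another family member, while 10 windows of Ms4a6c were found in Prdm11. At 100 bases Ms4a4b shared 29 windows with Ms4a4c and 13 with Ms4a2. Ms4a1 shared no window of either length within the family. Read length was not given in the sources used here. BE692007, a gene annotated on the opposite strand, shared 1088 exon bases with Ms4a6c, and the strand setting of the counting was not given either, so reads of the pair cannot be told apart if strand was ignored.

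Sequence upstream of the start was compared for the pairs of close copies in which one copy had far more reads than the other. RefSeq windows of 250 bases before the start were at hand for 5 members (Ms4a4b, Ms4a4c, Ms4a4d, Ms4a6b and Ms4a6c) on GRCm38.p6. The RefSeq starts of Ms4a4c and Ms4a6b lie inside the longer GENCODE genes, so the windows of these 2 members lie within the annotated gene and are upstream of the RefSeq start only. Only bases outside annotated exons are printed, 5′ to 3′ on the plus strand. Capitals mark a match to one of the motifs searched.
Ms4a4c, chr19:11407411-11407660: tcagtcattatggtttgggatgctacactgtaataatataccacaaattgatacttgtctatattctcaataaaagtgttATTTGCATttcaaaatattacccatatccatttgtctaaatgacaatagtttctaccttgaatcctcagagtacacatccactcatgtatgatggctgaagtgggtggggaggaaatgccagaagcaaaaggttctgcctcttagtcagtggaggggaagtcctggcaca
Ms4a4b, chr19:11443308-11443552: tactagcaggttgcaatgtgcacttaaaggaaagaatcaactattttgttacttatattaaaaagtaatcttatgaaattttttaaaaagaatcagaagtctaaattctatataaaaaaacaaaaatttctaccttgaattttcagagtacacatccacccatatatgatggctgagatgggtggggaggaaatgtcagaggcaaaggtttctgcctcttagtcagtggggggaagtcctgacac
Ms4a6c, chr19:11469118-11469365: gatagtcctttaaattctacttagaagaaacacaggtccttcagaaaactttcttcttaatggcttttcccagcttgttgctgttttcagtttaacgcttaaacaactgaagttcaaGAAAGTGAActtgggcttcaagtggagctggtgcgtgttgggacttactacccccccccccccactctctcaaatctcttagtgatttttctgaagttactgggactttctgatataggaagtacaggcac
Ms4a6b, chr19:11518309-11518452: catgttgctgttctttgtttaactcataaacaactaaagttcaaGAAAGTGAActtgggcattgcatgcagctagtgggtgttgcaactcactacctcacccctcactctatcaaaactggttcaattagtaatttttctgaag

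The upstream windows of Ms4a4b and Ms4a4c held the same base at 114 of 128 aligned columns (89.1%). Those of Ms4a6b and Ms4a6c did so at 152 of 182 columns (83.5%), and part of the Ms4a6b side of that alignment is annotated exon (106 of the 250 bases of its window) and is not printed. The motifs below were searched on both strands, after the sequences had been seen: the octamer ATGCAAAT, the ETS type GAGGAAGT, the interferon response type GAAANNGAA and the E-box CACGTG. Ms4a4c held the octamer on the minus strand, where the printed strand reads ATTTGCAT, and Ms4a4b did not. The octamer was present in 1.6% of all 32817 promoters of that table. Ms4a6b and Ms4a6c each held GAAANNGAA, present in 7.12% of promoters. Ms4a4d had no match, and GAGGAAGT (2.44% of promoters) and CACGTG (6.02%) were in none of the 5 windows. A match is a description of the letters and not of binding.

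Sequencing gave between 45343250 and 62774232 counted reads per library. After genes on the Y chromosome and genes with low counts were left out, 18268 genes were tested. Prmt1, the targeted gene, had normalized read counts of 3964, 3924 and 4838 in Control replicates 1 to 3 and 1745, 1478 and 1477 in Prmt1-null replicates 1 to 3. It had a mean normalized read count of 4242 ± 516 (SD, n = 3) in Control and 1567 ± 154 (SD, n = 3) in Prmt1-null, a log2 fold change of -1.44 (SE 0.095, edgeR quasi-likelihood test, adjusted p = 1.11e-05). A normalized read count is a library's count scaled to the mean effective library size. Between genotypes 216 genes were called, which means an adjusted p under 0.05 in edgeR's quasi-likelihood test and a mean normalized count over 100.

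The levels of the members spread over a wide range, with CD20 first. Compared as CPM (counts scaled to 1000000 reads per library) per kilobase of exon, Ms4a1 ranged from 397 to 438 over the 6 libraries, with a median of 424. Ms4a4c followed with a median of 258 (range 211 to 336) and Ms4a6c with 104 (74.6 to 114). These 3 genes made up nearly all reads of the members, and none of their ranges overlapped. Ms4a6b was much lower, with a median of 5.74 (4.41 to 6.38). Ms4a4b had a median of 0.982 (0.875 to 1.33) and Ms4a4d 0.863 (0.544 to 1.22), and the ranges of this pair overlapped, so their order was not resolved on this length. Ms4a6d was lowest, at 0.356 (0.0589 to 0.442). The order of the medians was the same when the length of a single transcript replaced that of all exons, although the medians of Ms4a1 (853), Ms4a6b (15.3) and Ms4a4b (1.81) were then higher. By that length the ranges of Ms4a4b (1.62 to 2.46) and Ms4a4d (0.544 to 1.22) did not overlap.

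**Figure D2:**
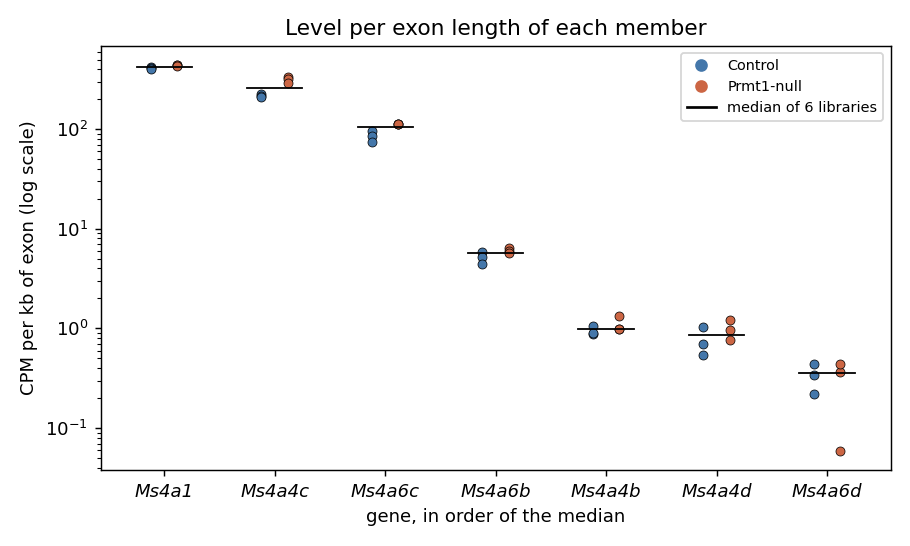
CPM per kilobase of exon (vertical axis, log scale) for each member (horizontal axis, ordered by the median), with 1 point per library and a line at the median of the 6 libraries. Ms4a1, Ms4a4c and Ms4a6c lie at 74.6 or above in every library, and the other 4 members at 6.38 or below.

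The close copies Ms4a4b and Ms4a4c did not share a level, and neither did Ms4a6b and Ms4a6c. Ms4a4b had between 1.54 and 2.37 reads for every 100 reads of Ms4a4c in the same library, in spite of the likeness of their coding parts. How many of the Ms4a4b reads arose from the shared stretch was not tested. By mean normalized read count over all libraries, Ms4a1 was number 23 among all tested genes, Ms4a4c number 262 and Ms4a6c number 900.

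Ms4a1 differed little between genotypes. Its normalized read counts were 142800, 141500 and 136300 in Control replicates 1 to 3 and 150400, 150000 and 148200 in Prmt1-null replicates 1 to 3. Every Prmt1-null library was above every Control library, but by a small step: the log2 fold change was 0.09 (SE 0.0529). CD20 transcript was thus abundant in all 6 libraries.

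With all libraries kept, Ms4a4c had the largest log2 fold change of the 7 members. Its normalized read counts were 21780, 20790 and 20500 in Control and 32670, 30980 and 28420 in Prmt1-null. The lowest Prmt1-null library lay well above the highest Control library, and the Control libraries sat close together. The means were 21020 ± 669 (SD, n = 3) and 30690 ± 2140 (SD, n = 3), a log2 fold change of 0.55 (SE 0.0668) or 1.46-fold. Set against CD20 in the same library, a ratio that needs no scaling between libraries, Ms4a4c reads were 14.7% to 15.2% of Ms4a1 reads in Control and 19.2% to 21.7% in Prmt1-null.

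The other Ms4a4 genes did not separate the groups. Ms4a4b, a gene that restrains proliferation in T cells, had normalized read counts of 516.4, 425.8 and 440.7 in Control and 648, 476.6 and 479.3 in Prmt1-null. A single Prmt1-null library stood high, and the other two lay inside the Control range (log2 fold change 0.21, SE 0.151). Ms4a4d had 87.48, 45.65 and 58.4 in Control and 102.3, 64.53 and 80.35 in Prmt1-null. These groups overlapped over most of their span (log2 fold change 0.37, SE 0.343), and this gene had only 52 to 101 reads per library.

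Among the Ms4a6 genes, Ms4a6c was the abundant one and the one whose groups stood apart. Its normalized read counts were 10890, 9814 and 8479 in Control and 12890, 12910 and 12740 in Prmt1-null. The Prmt1-null libraries were almost equal, and the Control libraries were spread below them. The means were 9727 ± 1210 (SD, n = 3) and 12850 ± 93.5 (SD, n = 3), with a log2 fold change of 0.40 (SE 0.0784) or 1.32-fold. Relative to CD20 in the same library, Ms4a6c reads were 6.22% to 7.62% in Control and 8.57% to 8.61% in Prmt1-null.

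Ms4a6b and Ms4a6d showed smaller or undefined differences. Ms4a6b, which has been studied in T cells, had normalized read counts of 1447, 1287 and 1097 in Control and 1588, 1502 and 1410 in Prmt1-null. Its groups overlapped by 1 Prmt1-null library that fell below the highest Control library (log2 fold change 0.23, SE 0.11). Ms4a6d had 42.52, 21.07 and 33.05 in Control and 35.44, 42.4 and 5.672 in Prmt1-null. The last value rests on 6 reads, and the estimate of -0.20 had an SE of 0.656, so this gene had too few reads to place the groups.

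**Figure D3:**
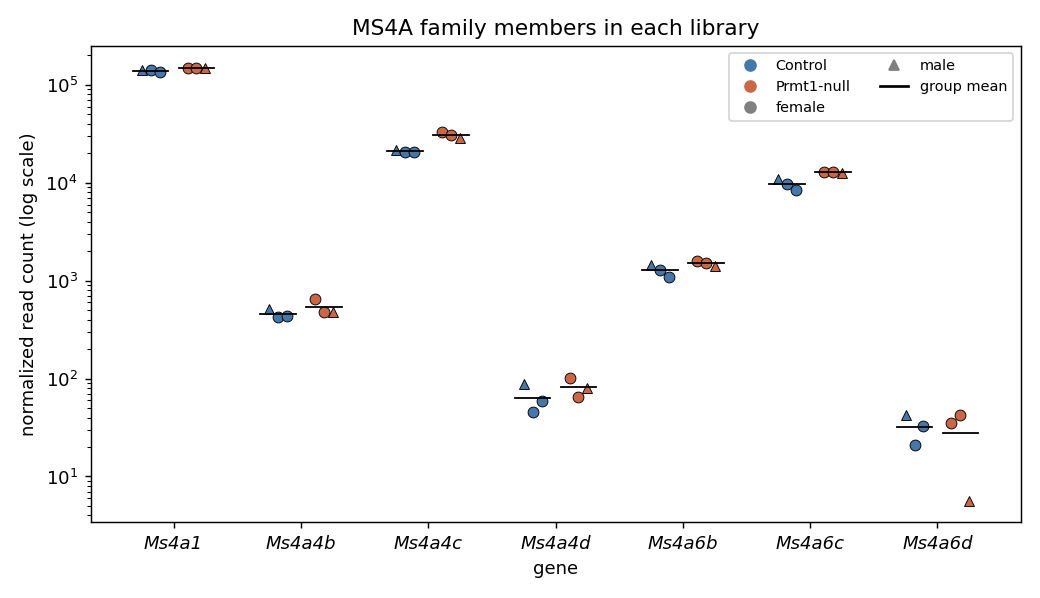
Normalized read count (vertical axis, log scale) of each member (horizontal axis) in the 3 Control and 3 Prmt1-null libraries, with circles for females, triangles for males and a line at each group mean. The groups stand apart for Ms4a1, Ms4a4c and Ms4a6c, and the male Prmt1-null library of Ms4a6d falls to 5.672.

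Counted together, 6 of the 7 members had a higher mean estimate in Prmt1-null, with a median log2 fold change of 0.23, against 49.9% of all tested genes higher and a median of -0.0008 over all of them. The groups did not overlap for 3 of the 7, all with Prmt1-null higher, where 9.95% of all tested genes did so. The whole-table call took in 2 members, Ms4a4c and Ms4a6c, both higher in Prmt1-null, where 1.18% of tested genes were called in either direction and 0.58% as higher. Since the members were chosen on this contrast, nothing is read from these counts. Ms4a6c was no longer called without Control replicate 2 or without any single one of the Prmt1-null libraries. Of 13092 tested genes with a mean normalized count over 100, 136 had a log2 fold change at least as high as Ms4a4c, itself included, and 353 at least as high as Ms4a6c.

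As a share of all reads, the 7 members together gave 3002 to 3223 CPM in Control and 3494 to 3523 in Prmt1-null. Within that sum, the part of Ms4a1 was 80.4% to 81.7% in Control and 75.8% to 77.5% in Prmt1-null. The part of Ms4a4c was 12% to 12.3% in Control and 14.9% to 16.5% in Prmt1-null. Ms4a1 therefore gave most reads of the members in every library, while Ms4a4c took a larger part of them in each Prmt1-null library. These are shares of reads, not corrected for length, and the merged exons were 6187 bases for Ms4a1 and 1751 for Ms4a4c. Per kilobase of exon the 2 genes were closer, at 438.3 and 336.5 CPM in Prmt1-null replicate 1.

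The sex of the mice gave a contrast that the choice of members had not used. In a fit with genotype as a term, 12 genes were called between males (n = 2) and females (n = 4), which is 0.0657% of the genes tested, and none of the 7 members was among them by edgeR; 0 of the 7 reached an unadjusted p under 0.05 (6.92% of all tested genes did), and DESeq2 called 0 as well (0.153% of all tested genes). Ms4a1 had a log2 fold change, male over female, of 0.01 (SE 0.0492, adjusted p = 0.975). Ms4a4c had -0.04 (SE 0.0651, adjusted p = 0.919) and Ms4a6c 0.12 (SE 0.0764, adjusted p = 0.791). The SE of Ms4a4d (0.363) and Ms4a6d (0.781) left their sex difference undetermined at this depth.

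The table held 9 further Ms4a genes, and 1 of them, Ms4a7, had enough reads to be tested. Ms4a7 had a mean normalized read count of 176.2 ± 45.3 (SD, n = 3) in Control and 204 ± 30.8 (SD, n = 3) in Prmt1-null, a log2 fold change of 0.21 (SE 0.224) that did not pass the test (edgeR adjusted p = 0.745). Ms4a15 had 0 to 7 reads per library. Ms4a3 had at most 18 reads, all but 6 of them in a single Control library, and Ms4a2 at most 6. Ms4a8a reached 2 reads and Ms4a5 1 read. Ms4a10, Ms4a13 and Ms4a18 had 0 reads in each library, which allows up to 3 reads, or between 0.0478 and 0.0662 CPM depending on the library, for counting error only. The mast cell gene Ms4a2 and the progenitor gene Ms4a3 were thus at or near 0 in these cultures.

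Genes around the cluster were examined to place the members in their neighbourhood. Within 500 kb on either side of the Ms4a cluster (10462293 to 12140851 on chromosome 19), 37 genes were tested, 29 of them outside the family by symbol. Of these 29, 0 were called by edgeR, 9 had an unadjusted p under 0.05 (13.5% of all tested genes did), and DESeq2 called 2 (4.08% of all tested genes were called by it), Gpr44, a prostaglandin receptor, and Ccdc86, both lower in Prmt1-null. Their median log2 fold change was 0.02, and the median of its size without sign was 0.15, against 0.14 for all tested genes. Gm8369, which lies between Ms4a6c and Ms4a6b, had -0.14 (SE 0.0578, adjusted p = 0.3) at a mean normalized count of 6050. Cd5, an inhibitory partner of the antigen receptor, had 0.42 (SE 0.148, adjusted p = 0.212).

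**Figure D4:**
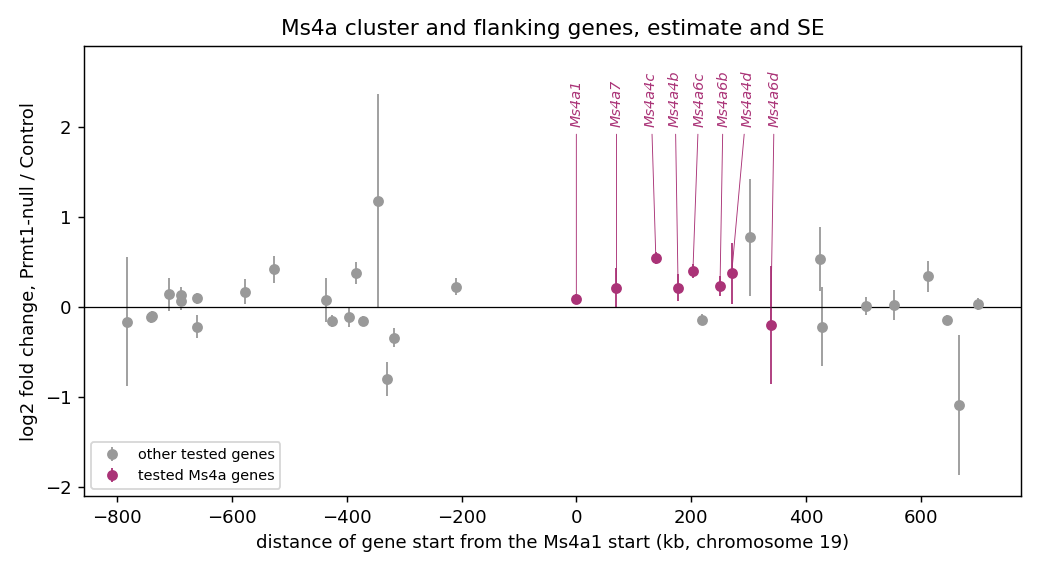
Log2 fold change of Prmt1-null over Control with its SE (vertical axis) against the distance of each gene's start from that of Ms4a1 in kb (horizontal axis), with purple for the 8 tested Ms4a genes and grey for the 29 other tested genes. Ms4a4c (0.55) and Ms4a6c (0.40) lie above zero with short bars, and grey points lie on both sides of zero.

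Other surface genes of B cells were set beside the members from a list of 22 antigen receptor partners and tetraspanins. All 22 were tested, 13 had a higher mean estimate in Prmt1-null, 1 was called higher and 1 lower (1.18% of all tested genes were called in either direction), and the median log2 fold change was 0.06. Cr2, a complement receptor of mature B cells, fell with a log2 fold change of -0.48 (SE 0.0911, edgeR adjusted p = 0.0241), from 8364 ± 520 to 5993 ± 913 normalized reads (SD, n = 3 each). Tspan31, a tetraspanin, rose by a log2 fold change of 0.27 (SE 0.0608, edgeR adjusted p = 0.0456). These 2 genes moved in opposite directions, and the remaining 20, among them Cd22, Cd37 and Cd81, were not called by edgeR. DESeq2, which called 4.08% of all tested genes, called 3 of the list, Cr2, Tspan31 and Cd24a, the last with an edgeR log2 fold change of -0.20 (SE 0.0644).

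Transcription factors of B cell genes were listed because octamer, ETS and IRF factors act on many B cell promoters. Of 23 tested, 8 had a higher mean estimate in Prmt1-null, with a median log2 fold change of -0.02. By edgeR 0 were called, 8 had an unadjusted p under 0.05, against the 13.5% of all tested genes, and DESeq2 called 2, Xbp1 and Bach2, against its 4.08%. The smallest p in this list belonged to Xbp1, a plasma cell factor, at 0.29 (SE 0.0683, edgeR adjusted p = 0.0571), followed by Bach2, a repressor of plasma cell differentiation, at -0.22 (SE 0.065, edgeR adjusted p = 0.124). Pou2af1, the coactivator of octamer factors, had -0.05 (SE 0.0505, edgeR adjusted p = 0.701) and is named outside the rule for named genes. Of 28 interferon-induced genes, 14 had a higher mean estimate, with a median of -0.02. By edgeR 0 were called, 5 had an unadjusted p under 0.05, and DESeq2 called 2, Ifi44 and Gbp2. In that list Gbp2, an interferon-induced GTPase, had 0.36 (SE 0.0939, edgeR adjusted p = 0.0895), and Ifi44 had 0.79 (SE 0.235, edgeR adjusted p = 0.134).

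Markers of the cell types the cultures could hold were read in the same libraries. The 6 B cell markers, Cd79a and Cd79b among them, were all tested and summed to 3620 to 4030 CPM in Control and 3750 to 4040 in Prmt1-null. By edgeR and by DESeq2 0 were called, and 1 had an unadjusted p under 0.05, Cd79b. Cd79b had a log2 fold change of 0.19 (SE 0.0752, edgeR adjusted p = 0.257) and Cd79a 0.09 (SE 0.0974, edgeR adjusted p = 0.752). The labelled B cell identity was thus borne out by all 6 markers in each library.

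The summed levels of plasma cell markers and of feeder markers were higher in each Prmt1-null library than in each Control library, although 4 of the 5 tested plasma cell markers and 4 of the 6 tested feeder markers overlapped between the groups when taken singly. Of 6 plasma cell markers, 5 were tested, and the list summed to 966 to 1090 CPM in Control and 1110 to 1200 in Prmt1-null. By edgeR 0 were called, 2 had an unadjusted p under 0.05 (13.5% of all tested genes did), and DESeq2 called 1, Xbp1 (4.08% of all tested genes). Irf4 had a log2 fold change of 0.16 (SE 0.0718, edgeR adjusted p = 0.337). Most reads of the plasma cell sum came from Irf4 and Xbp1. Their mean normalized counts were 27160 and 18770 in Control and 30390 and 22980 in Prmt1-null. Igj went the other way, from 8988 to 8441, with -0.09 (SE 0.0771, edgeR adjusted p = 0.669). The 8 feeder fibroblast markers summed to 9.77 to 12.9 CPM in Control and 13.5 to 17.4 in Prmt1-null, with Lum and Postn at 0 in each library; by edgeR and by DESeq2 0 of the 6 tested were called, and 2 had an unadjusted p under 0.05. Of these, Col1a1 had 0.44 (SE 0.144, edgeR adjusted p = 0.173) and Sparc 0.64 (SE 0.291, edgeR adjusted p = 0.36). The part of either in the difference of the members was not tested. In bulk RNA, fewer cells of a type and less RNA per cell cannot be told apart.

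Markers of the cell types in which other members are best known were scarce. The 9 T and NK cell markers summed to 51.2 to 54.5 CPM in Control and 49.1 to 55.9 in Prmt1-null, nearly all of it from Cd247 and Lck. Nkg7 had a log2 fold change of 1.24 (SE 0.445, edgeR adjusted p = 0.219) from few reads, and Cd247 had -0.17 (SE 0.103, edgeR adjusted p = 0.516). Of 10 macrophage and monocyte markers, 4 were tested, and the list summed to 35.4 to 40.1 CPM in Control and 37.2 to 42.6 in Prmt1-null, with C1qa and C1qb at 0 in each library. Emr1, the older symbol of the gene of the macrophage surface protein F4/80, rose with a log2 fold change of 0.73 (SE 0.147, edgeR adjusted p = 0.0319). Its normalized read counts were 300.1, 353.8 and 404.4 in Control and 565, 533.7 and 657.9 in Prmt1-null, so its groups did not overlap, and DESeq2 called it too. The other 3 tested markers were not called and overlapped between the groups. The part of macrophages in the differences of the members was not tested. The 5 mast cell and basophil markers, which include Ms4a2, summed to 1.36 to 2.43 CPM in Control and 2.44 to 3.1 in Prmt1-null, so that these groups too did not overlap, by a narrow gap, and the part of these cells in the members' differences was not tested. Cpa3 had 1.49 (SE 0.459, edgeR adjusted p = 0.15) and Kit 0.16 (SE 0.415, edgeR adjusted p = 0.905). Cpa3 went from a mean normalized count of 22.44 in Control to 63.97 in Prmt1-null. Ms4a2 did not follow the sum, with 0, 6 and 4 reads in Control replicates 1 to 3 and 0 in each Prmt1-null library. By edgeR and by DESeq2 0 genes of the T and NK cell and mast cell lists were called, and 2 had an unadjusted p under 0.05, Nkg7 and Cpa3. The T and NK cell sum and the macrophage sum were of the order of the scarce members or above them: Ms4a6b had 19.7 to 28.2 CPM over the 6 libraries, Ms4a4b 7.73 to 11.5 and Ms4a6d 0.104 to 0.772. Their part in these members' levels was not tested.

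The genes most like CD20 and most like Ms4a4c across the 6 libraries were sought by Pearson's r of log2 CPM, among the genes with a mean normalized count over 100. For Ms4a1 these were Ifi205 (0.998), Dnajc27 (0.997) and Gm6206 (0.99). For Ms4a4c they were Luc7l (0.993), 2610020C07Rik (0.993) and Dnm3 (0.992). Of 13091 genes compared with each, 54 had an r above 0.95 with Ms4a1 and 76 with Ms4a4c. The genes named were picked as the highest of that many. Each r rests on 6 libraries, and the 6 points share the split between genotypes. The values describe these libraries only.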

How the data were processed

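RNA was purified from 6 iGB cultures and sequenced after ribosomal RNA depletion with a stranded kit. Per the labels, the authors trimmed reads with Trimmomatic 0.32, aligned them to mm10 (GRCm38) with STAR 2.3.0e and counted exon reads per Ensembl gene with featureCounts 1.4.4; the deposited values are raw whole-number counts. The strand setting and the read length are not given in the sources used here. Reads with as many as 2 locations were counted, so close copies can exchange reads.

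Counts were read for all 39017 genes. Positions, exons and transcripts came from GENCODE M21 on GRCm38, matched by identifier (37693 genes) and otherwise by symbol. Genes on chromosome Y (398) were dropped, low counts were filtered with filterByExpr, libraries were scaled by TMM, and genotype was fitted with the quasi-likelihood test of edgeR 4.0.16 in R 4.3.3, with Benjamini-Hochberg adjustment over 18268 genes. Calls needed a mean normalized count over 100 besides an adjusted p under 0.05. SEs were derived from the F statistic. The sex contrast added genotype as a term. Depth was 45343250 to 62774232 counts per library. The fit was tested on simulated data before use.

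The members, gene lists and motifs were chosen with earlier results of these data known. Named genes were the members and other Ms4a genes, Prmt1, called genes of each list up to 3 or else the 2 with the smallest p, called neighbours, and the 3 genes most correlated with Ms4a1 and with Ms4a4c. Gm8369, Cd5, Gpr44, Ccdc86, Pou2af1 and Igj were named after their values were seen. Levels per length used merged exons. Coding parts were aligned globally, and windows of 50 and 100 bases were compared with all annotated transcripts except overlapping genes. Alternatives were DESeq2 1.42.0, its size factors, no filter on low counts, no minimum mean count, a replicate block, sex as a covariate, chromosome Y kept and each library left out; females alone and another transcript length were added after seeing the data. Protein sequences were not used here. List genes were matched by symbol and, where the table holds an older symbol, by Ensembl identifier (Jchain as Igj, Adgre1 as Emr1), a match added after seeing the data. One gene of the lists was left out of all their counts and is not reported here.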

Additional observations from a re-analysis of the deposited data

Results flagged for a closer look

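For 4 members the genotype difference pointed one way in every female library and the other way in males, of which there was 1 in each group. On the log2 scale, Prmt1-null minus Control, Ms4a4b differed by 0.36 in females and -0.11 in males. Ms4a4d differed by 0.65 in females and -0.12 in males, and Ms4a6b by 0.38 in females and -0.037 in males. Ms4a6d differed by 0.55 in females and -2.80 in males, where the Prmt1-null male had 6 reads. With 1 male in each group, the spread between males could not be measured. The 4 members were picked for these opposite signs, from the contrast on which the family was chosen, so a test of the difference between the sexes on the same values says nothing, and none is given.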

How the results depend on the processing

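Since the members were chosen on the genotype contrast, their values under the alternatives are a description and support nothing. Of 91 such values, 84 kept the direction and the side of the threshold, 4 lost the call and 3 reversed. The log2 fold change of Ms4a4c ranged from 0.50 to 0.63. Ms4a6c lost its call without Control replicate 2 (edgeR adjusted p = 0.12) and without Prmt1-null replicate 1, 2 or 3 (0.126, 0.132 and 0.0877). Its log2 fold change in these fits was 0.41, 0.40, 0.40 and 0.41, in the same order. Without single libraries it ranged from 0.31 to 0.49, and both ends came from fits that kept the call. The number of members called then ranged from 1 to 2. Ms4a6d reversed to 0.05 without Control replicate 1, to 0.28 without Prmt1-null replicate 3 (the library with 6 reads of it) and to 0.53 in females alone, and single libraries left out moved it between -0.64 and 0.28. The other 4 members kept their direction and remained uncalled in each alternative, but single libraries left out moved Ms4a4b between 0.06 (without Prmt1-null replicate 1) and 0.31, Ms4a4d between 0.18 and 0.67 and Ms4a6b between 0.14 and 0.33. In females alone, an alternative chosen after seeing the data, Ms4a4c (0.63) and Ms4a6c (0.50) were called. Ms4a4d, uncalled, had a higher value than Ms4a4c in females alone (0.68) and without Control replicate 1 (0.67 against 0.575).

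The 216 genes called between genotypes became 746 with DESeq2 (332 higher, 414 lower), 675 without the filter on low counts, 113 in females alone and between 31 (without Prmt1-null replicate 2) and 340 (without Control replicate 3) with single libraries left out. The 12 genes called between the sexes became 28 with DESeq2, 80 without the filter and between 9 and 24 with single libraries left out, and members called stayed at 0 in each. The causes were not tested.

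Replicate numbers did not pair the samples: deviations of same-numbered libraries from their group means correlated at -0.07, 0.04 and -0.08 for numbers 1, 2 and 3. With the number as a replicate block, 151 genes were called between genotypes, Ms4a4c and Ms4a6c among them, and 101 between the sexes. Depth limits Ms4a4d and Ms4a6d, which had at most 101 reads in a library.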
